A study of Mus musculus with 11 samples.

Results

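Neutrophils reach a tumor from the bone marrow, and their transcripts mark the stage at which they left it. Here 10 genes of this cell were followed in whole E0771 tumors, out of 19505 genes named on the array. Of its 22206 probe sets, 10 carried the symbol of 1 of these genes, 1 probe set for each. The genes were divided by where the product sits. Ngp, Camp, Ltf and Lcn2 (4 genes) encode proteins of the secondary granules, S100a8, S100a9 and Retnlg (3 genes) encode cytosolic or late-stage secreted proteins, and Csf3r, Cxcr2 and Trem1 (3 genes) encode surface receptors.

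E0771 is a mouse mammary carcinoma line. Before injection its cells received a scrambled hairpin (scram, 4 tumors) or 1 of 2 hairpins that target the pyruvate carboxylase gene Pcx (shPC25, 3 tumors, and shPC28, 4 tumors), and each C57BL6J mouse was given 500000 cells in a mammary fat pad. The study used young adult females on a single diet, and the labels say that the animals received no treatment (sample titles also carry LFD, which is not spelled out). The hairpins were delivered with lentivirus in a pLKO.1 vector, with puromycin selection, so all 3 groups carry a vector and host cells carry none. No repeat of the transduction is described, so p-values measure only the spread between tumors. The comparison of shPC with scram tumors asks how neutrophil transcripts differed in tumors grown from cells with less pyruvate carboxylase.

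As background, granulocyte precursors in the marrow make their granule proteins in a fixed order. Primary granule proteins come first, secondary granule proteins such as lactoferrin, cathelicidin and lipocalin-2 follow in the myelocyte and metamyelocyte stages, and most of that transcription has stopped when the cell enters blood. Mature neutrophils carry large amounts of S100A8 and S100A9, and their surface receptors CXCR2 and G-CSF receptor guide mobilization and survival. The factors C/EBP epsilon and PU.1 are known regulators of granulocyte genes. Some of these products are not restricted to neutrophils, since epithelial and tumor cells can make lipocalin-2 and S100 proteins, and monocytes can make TREM-1.

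Promoter sequence was read from RefSeq (GRCm38.p6) for all 10 genes, from 250 bases before to 50 bases after the start. A C/EBP motif (TTGCNNAA, either strand) was searched for together with a PU.1 motif (GAGGAA, either strand), and no match of one overlapped a match of the other. The C/EBP letters were in 5 of 10 member promoters (Ngp, Ltf, Lcn2, S100a9 and Retnlg), against 10.8% of 32851 promoters of the same length. PU.1 letters were in 6 of 10 (Ltf, Lcn2, S100a8, Csf3r, Cxcr2 and Trem1), against 28.3%. All 3 receptor promoters held the PU.1 letters and none of the 3 held the C/EBP letters. A match describes these letters in this window and no binding was measured. A granule gene, a late gene and a pair of receptors are shown, with the motif matches in capitals, to set the groups of genes beside each other. Ngp lies at chr9:110419558-110419857 (plus strand), S100a9 at chr3:90695672-90695971 (minus strand), Csf3r at chr4:126024409-126024708 (plus strand) and Cxcr2 at chr1:74153744-74154043 (plus strand). In the RefSeq gene order S100a8 and S100a9 are neighbours.
Ngp: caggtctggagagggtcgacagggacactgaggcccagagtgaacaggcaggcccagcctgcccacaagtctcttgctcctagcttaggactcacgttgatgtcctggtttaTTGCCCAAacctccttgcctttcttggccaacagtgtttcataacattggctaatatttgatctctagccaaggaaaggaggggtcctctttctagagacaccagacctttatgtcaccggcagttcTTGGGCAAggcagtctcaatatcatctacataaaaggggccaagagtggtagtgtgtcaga
S100a9: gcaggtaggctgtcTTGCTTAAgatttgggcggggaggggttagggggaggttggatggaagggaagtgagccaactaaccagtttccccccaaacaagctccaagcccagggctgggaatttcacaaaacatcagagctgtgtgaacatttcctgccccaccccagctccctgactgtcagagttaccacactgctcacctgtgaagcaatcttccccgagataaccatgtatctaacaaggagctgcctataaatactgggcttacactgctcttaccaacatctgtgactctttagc
Csf3r: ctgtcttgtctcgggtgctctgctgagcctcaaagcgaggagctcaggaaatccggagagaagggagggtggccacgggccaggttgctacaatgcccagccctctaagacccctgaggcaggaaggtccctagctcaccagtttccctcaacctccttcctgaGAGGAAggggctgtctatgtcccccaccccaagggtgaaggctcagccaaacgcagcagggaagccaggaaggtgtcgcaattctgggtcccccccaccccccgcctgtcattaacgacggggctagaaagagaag
Cxcr2: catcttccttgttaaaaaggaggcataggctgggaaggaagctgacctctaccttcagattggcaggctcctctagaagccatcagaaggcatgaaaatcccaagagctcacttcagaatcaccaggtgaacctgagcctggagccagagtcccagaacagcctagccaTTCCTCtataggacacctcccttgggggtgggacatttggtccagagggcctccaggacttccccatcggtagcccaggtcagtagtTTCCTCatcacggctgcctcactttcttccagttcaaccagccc

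Pcx itself was read at 3.41, 3.89, 4.48 and 4.13 in scram replicates 1 to 4, at 3.19, 3.42 and 3.12 in the shPC25 tumors and at 3.76, 2.90, 2.32 and 3.44 in the shPC28 tumors (log2 signal). The difference of all shPC tumors from scram was -0.80 (SE 0.27, adjusted p = 0.388 by limma), and each of the 7 shPC tumors was under the scram mean of 3.98. The probe set was dim: 1091 olfactory receptor probe sets, taken as genes a tumor does not express, had a median of 2.94 and a 95th percentile of 4.43. Values under 4.43 are called near background below. Arrays correlated with each other at r of 0.987 to 0.994, array medians lay between 5.89 and 6.08, and 0 pairs were identical.

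Most of the neutrophil genes had lower signals in shPC than in scram tumors, and none of them passed the threshold across all genes. The median difference over the 10 genes, all shPC minus scram, was -1.64 on the log2 scale, while the median over all probe sets was 0.02. Lower values were found for 8 of the 10 genes. The other genes, Camp and Ltf, were close to background, and no direction is read from them. At an unadjusted p below 0.05, 7 of 10 genes were lower (Ngp, Lcn2, S100a9, Retnlg, Csf3r, Cxcr2 and Trem1), where 4.76% of all probe sets were (2.74% after median centring, with 7 members). At an adjusted p below 0.05 there were 0 of 10 by limma (smallest adjusted p = 0.206, for Retnlg) and 0 of 10 by the methods' t-test, which put 6 genes lower at an unadjusted p below 0.05 (4.34% of all probe sets). Over all probe sets 0.0135% were called lower after adjustment.

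The count of 7 rested partly on single tumors. It dropped to 4 when either scram replicate 1 (4.15% of all probe sets) or scram replicate 3 (4.03%) was left out. With any other tumor left out it lay between 6 and 8 (4.24% to 5.22%). In whole tumors, fewer neutrophils, less RNA per neutrophil and a change in other cells that make some of these transcripts cannot be told apart.

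**Figure D1:**
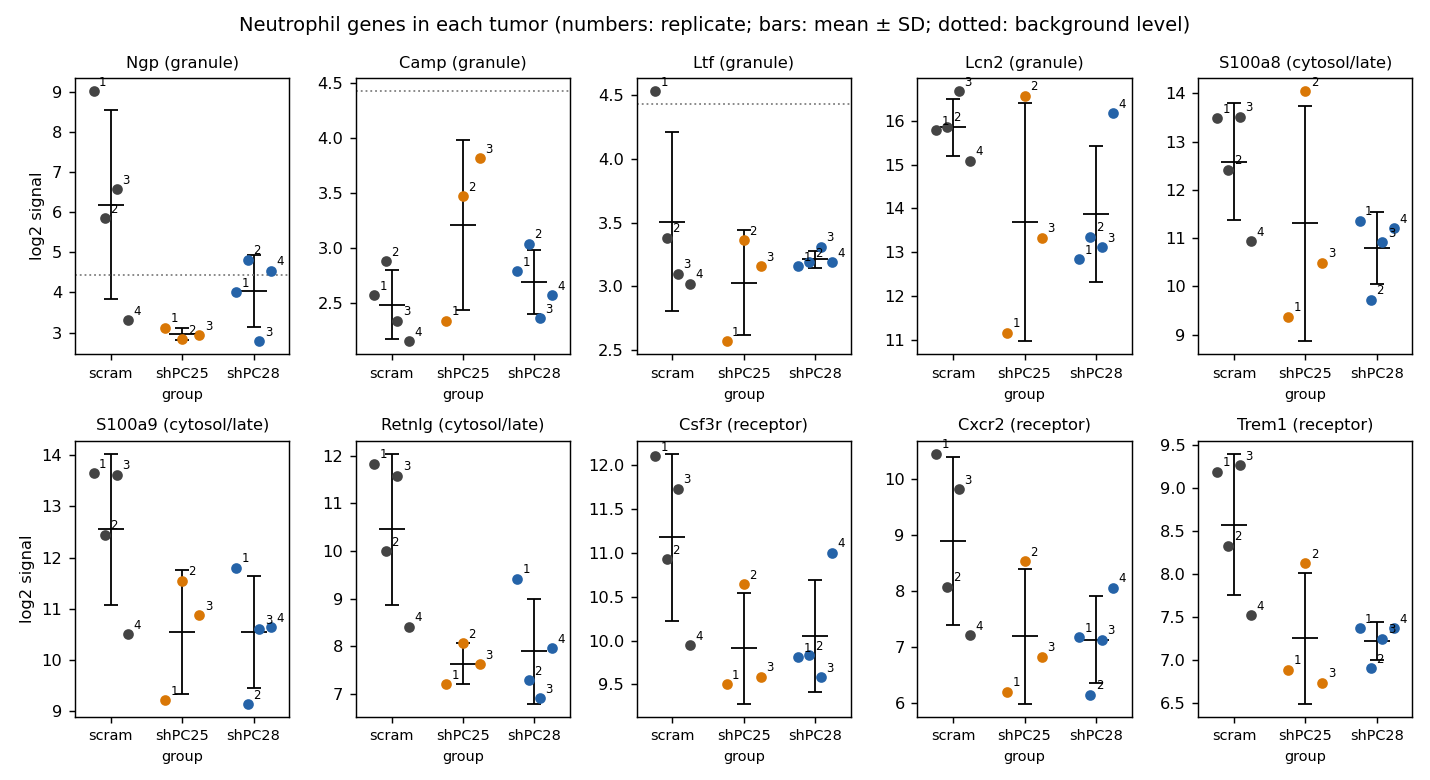
Log2 signal of each of the 10 genes (vertical axis, scaled per gene) in scram, shPC25 and shPC28 tumors, with each point 1 tumor, its replicate number beside it, and bars for the mean ± SD. Scram replicates 1 and 3 lie high and scram replicate 4 lies low for most genes, Camp lies under the dotted background level of 4.43 throughout, and Lcn2 spans 11.2 to 16.6 within shPC25.

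Of the granule genes, Ngp had the widest range. This gene encodes neutrophilic granule protein, a cystatin-related product of secondary granules. Its signal was 9.03, 5.86, 6.58 and 3.31 in scram replicates 1 to 4, 3.12, 2.84 and 2.94 in shPC25 replicates 1 to 3, and 4.01, 4.82, 2.78 and 4.54 in shPC28 replicates 1 to 4. Scram replicates 1, 2 and 3 stood above every shPC tumor, whereas scram replicate 4 lay among them. Above background lay 3 of 4 scram tumors and 2 of 7 shPC tumors (both shPC28), so the size of the difference is poorly set at the low end. Group means ± SD were 6.195 ± 2.35 for the 4 scram tumors, 2.97 ± 0.14 for the 3 shPC25 tumors and 4.04 ± 0.90 for the 4 shPC28 tumors. The difference of all shPC from scram was -2.69 (SE 0.82, limma adjusted p = 0.328), with 7 of 7 shPC tumors below the scram mean and 4 of 7 below every scram tumor. Without scram replicate 1 the difference was -1.75.

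Lcn2 encodes lipocalin-2, the iron-siderophore binding protein of secondary granules. It was 15.79, 15.86, 16.68 and 15.09 in the scram tumors, 11.16, 16.57 and 13.33 in shPC25 replicates 1 to 3, and 12.84, 13.35, 13.11 and 16.17 in shPC28 replicates 1 to 4. Scram tumors were close together (15.86 ± 0.65, SD, n = 4). Among shPC tumors, 5 of 7 lay below every scram tumor, while shPC25 replicate 2 and shPC28 replicate 4 lay within the scram range. The difference was -2.08 (SE 0.91, adjusted p = 0.535), or 4.22-fold lower on the linear scale. Without shPC25 replicate 1 it was -1.45 and without shPC25 replicate 2 it was -2.80. An epithelial list (5 of 5 listed genes measured, Epcam, Krt8, Krt18, Krt19 and Cdh1) had a median difference of -0.17 (-0.38 for shPC25 and 0.07 for shPC28). Its mean ranged from 6.21 to 7.41 in scram and from 5.77 to 7.80 in shPC tumors. Krt18 (3.14 to 6.26) and Krt19 (2.73 to 6.38) were near background in some tumors of each group.

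The other 2 granule genes, Camp and Ltf, were close to background. Camp encodes the cathelicidin precursor and Ltf encodes lactoferrin, an iron-binding protein. Camp lay between 2.15 and 2.88 in scram, 2.34 and 3.82 in shPC25 and 2.36 and 3.04 in shPC28 tumors, all 11 below the olfactory receptor limit. Ltf lay between 3.02 and 4.53 in scram, 2.57 and 3.36 in shPC25 and 3.16 and 3.31 in shPC28 tumors, and only scram replicate 1 (4.53) was above that limit. The Camp difference was 0.47 (SE 0.26, adjusted p = 0.656) and the Ltf difference was -0.39 (SE 0.27, adjusted p = 0.73). A level this low does not allow a direction to be read.

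Retnlg, which encodes resistin-like gamma, a secreted protein of mature mouse neutrophils, showed the smallest p of the 10 genes. The scram tumors were at 11.83, 9.99, 11.58 and 8.41. Replicates 1 to 3 of shPC25 were at 7.21, 8.07 and 7.62 and those of shPC28 were at 9.42, 7.29, 6.91 and 7.96. Scram replicate 4 was above 6 of 7 shPC tumors, and shPC28 replicate 1 alone reached into the scram range. Means ± SD were 10.45 ± 1.59 for the 4 scram, 7.63 ± 0.43 for the 3 shPC25 and 7.90 ± 1.11 for the 4 shPC28 tumors. The difference was -2.69 (SE 0.64, limma adjusted p = 0.206), or 6.45-fold lower, and leaving out 1 tumor at a time put it between -3.37 and -2.23.

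S100a8 and S100a9 encode the subunits of calprotectin, a calcium-binding heterodimer of the neutrophil cytosol. S100a9 was 13.65, 12.45, 13.62 and 10.50 in scram, 9.20, 11.55 and 10.87 in shPC25 and 11.80, 9.13, 10.60 and 10.64 in shPC28 tumors. All 7 shPC tumors were below the scram mean, and because of scram replicate 4 only 2 of 7 were below every scram tumor. S100a8 was 13.48, 12.42, 13.52 and 10.93 in scram, 9.37, 14.05 and 10.49 in shPC25 and 11.36, 9.72, 10.91 and 11.20 in shPC28 tumors. Here shPC25 replicate 2 held the highest value of all 11 tumors. S100a9 differed by -2.01 (SE 0.68, adjusted p = 0.39), a 4.04-fold lower signal, and S100a8 by -1.54 (SE 0.80, adjusted p = 0.612), a 2.90-fold lower signal. In shPC25 replicate 2 the neighbouring pair parted, with S100a8 at 1.46 from its scram mean and S100a9 at -1.005 from its own.

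The receptors differed by similar amounts. Csf3r encodes the G-CSF receptor, Cxcr2 the receptor for CXC chemokines such as CXCL1 and CXCL2, and Trem1 an amplifier of inflammatory signaling on myeloid cells. Csf3r was 12.10, 10.93, 11.73 and 9.95 in scram, 9.50, 10.64 and 9.59 in shPC25 and 9.81, 9.83, 9.58 and 11.00 in shPC28 tumors. Its values in 5 of 7 shPC tumors lay below every scram tumor, and shPC25 replicate 2 and shPC28 replicate 4 lay between scram tumors. Cxcr2 was 10.46, 8.08, 9.82 and 7.21 in scram, 6.20, 8.54 and 6.83 in shPC25 and 7.18, 6.15, 7.13 and 8.06 in shPC28 tumors. As for Csf3r, 5 of 7 shPC tumors were under the lowest scram tumor. Trem1 was 9.19, 8.33, 9.27 and 7.52 in scram, 6.89, 8.13 and 6.74 in shPC25 and 7.37, 6.91, 7.25 and 7.37 in shPC28 tumors, with 6 of 7 shPC tumors below every scram tumor. The differences were -1.20 for Csf3r (SE 0.42, adjusted p = 0.41, 2.29-fold lower), -1.73 for Cxcr2 (SE 0.64, adjusted p = 0.442, 3.32-fold lower) and -1.34 for Trem1 (SE 0.35, adjusted p = 0.253, 2.53-fold lower). For each receptor 7 of 7 shPC tumors were below the scram mean.

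Set by role, the median difference was -1.23 for the 4 secondary granule genes, -2.01 for S100a8, S100a9 and Retnlg, and -1.34 for the 3 receptors. The granule median includes Camp and Ltf, which were near background, while Ngp and Lcn2 differed by -2.69 and -2.08. In no gene did all shPC tumors lie below all scram tumors (0 of 10 genes, against 0.703% of all probe sets). Within each tumor the mean of the granule genes minus the mean of the receptors, each gene centred on its mean over tumors, ran from -0.73 to 0.25 in scram and from -0.36 to 0.84 in shPC tumors, so the groups overlapped. Its difference of group means was 0.26, with a range of 0.08 (without scram replicate 3) to 0.40 (without scram replicate 2) when single tumors were left out. With Camp and Ltf left out, a choice made after the values were seen, the same quantity ran from 0.08 to 0.94 in scram and from -1.28 to 0.66 in shPC tumors, and the difference turned to -0.92. The granule side was then Ngp and Lcn2 alone, and most Ngp values in shPC tumors were near background.

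**Figure D2:**
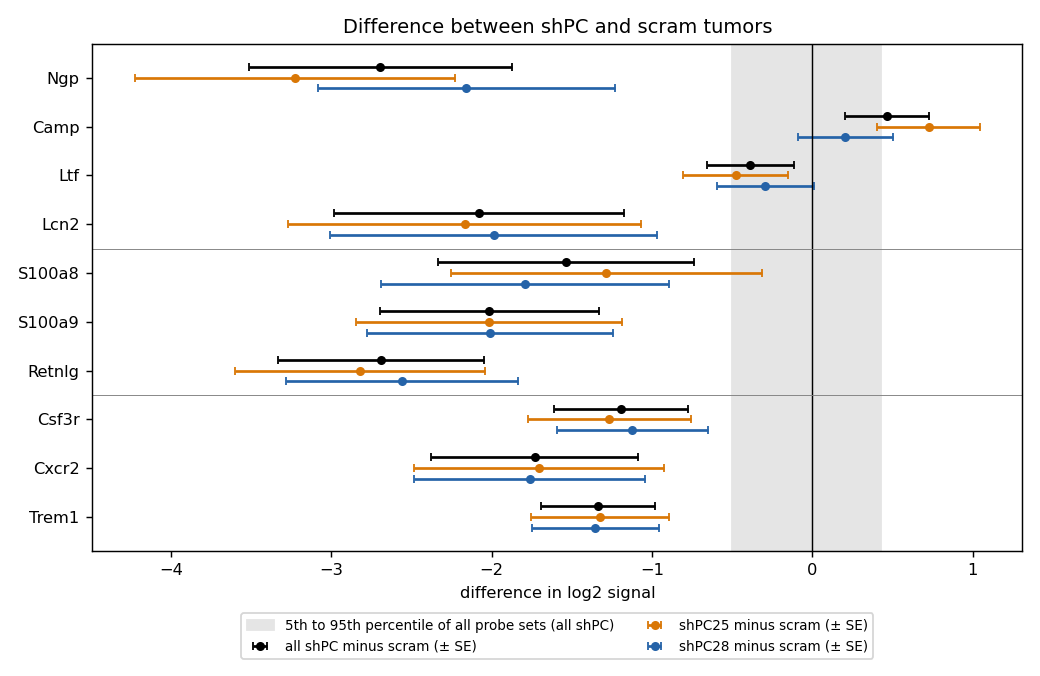
Difference in log2 signal from scram (horizontal axis, ± SE) for each gene, for all shPC tumors and for each hairpin, with a grey band for the 5th to 95th percentile of all probe sets in the all shPC comparison (-0.50 to 0.43). Left of the band in all 3 comparisons lie 8 genes, and Camp and Ltf, both near background, do not.

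Each hairpin was also compared with scram on its own. These comparisons share the scram tumors, so they are set side by side without a measure of likeness. For shPC25 minus scram the differences were -3.23 for Ngp, -2.17 for Lcn2, -2.82 for Retnlg, -2.02 for S100a9, -1.28 for S100a8, -1.27 for Csf3r, -1.70 for Cxcr2 and -1.32 for Trem1. Those for shPC28 minus scram were -2.16, -1.99, -2.56, -2.01, -1.79, -1.12, -1.76 and -1.35 in the same order. Single tumors set some of these values. In shPC25, S100a8 was at -0.32 without replicate 1 and at -2.66 without replicate 2, and Lcn2 was at -0.905 and -3.61. Ngp in shPC28 was at -1.21 without scram replicate 1. At an unadjusted p below 0.05, 5 of 10 genes were lower in shPC25 (4.16% of all probe sets) and 6 of 10 in shPC28 (3.72%). None of the 10 passed after adjustment in either, with smallest adjusted p-values of 0.37 and 0.416 by limma.

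Both counts depended on single tumors. The shPC25 count was 3 without scram replicate 1 or 3 or shPC25 replicate 1 or 3 (3.51% to 4.03% of all probe sets). It was 8 without shPC25 replicate 2 (3.45%). The shPC28 count was 2 without scram replicate 1 or 3 (3.34% and 3.4%) and 3 without shPC28 replicate 1, 2 or 3 (3.19% to 3.3%). It rose to 8 without shPC25 replicate 1 (3.7%). Without scram replicate 4, shPC25 replicate 2 or shPC28 replicate 4 it was 7 (3.55% to 4.22%). By the methods' t-test the counts were 1 (2.9% of all probe sets) and 3 (3.52%).

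Direct comparison of the hairpins, shPC28 minus shPC25, called 0 of 10 genes at an unadjusted p below 0.05, where 4.61% of all probe sets were called in either direction. The differences ran from -0.52 for Camp to 1.07 for Ngp, with adjusted p-values of 0.993 to 1. With n = 3 and n = 4 tumors the 95% intervals were wide. For Trem1 the interval ran from -0.97 to 0.91, for Csf3r from -0.97 to 1.26, for Retnlg from -1.45 to 1.97, and for Ngp from -1.12 to 3.26. These intervals do not show that the hairpins act alike.

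Scram replicates 1 and 3 held the highest value of 8 of the 10 genes (6 and 2), and scram replicate 4 held none of the 3 highest values of any gene. With each gene centred on its mean, the average over the 10 genes was 2.00, 0.75, 1.56 and -0.46 in scram replicates 1 to 4, -1.51, 0.46 and -0.73 in the shPC25 tumors and -0.29, -0.92, -0.87 and 0.01 in the shPC28 tumors. Scram replicate 4 was thus below shPC25 replicate 2, shPC28 replicate 1 and shPC28 replicate 4. The lowest tumor was shPC25 replicate 1, which held the lowest value of 4 genes.

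The 8 members other than Camp and Ltf correlated with each other at r of 0.48 to 0.949 over the 11 tumors (28 pairs), and at 0.158 to 0.927 after the group means were removed. Both lowest values were for Ngp with Lcn2, and Ngp was above background in only 3 of 4 scram and 2 of 7 shPC tumors. Camp, near background, correlated with the other 9 at -0.243 to 0.087. The receptors correlated with each other at 0.916 to 0.949, and at 0.858 to 0.927 within groups. S100a8, S100a9 and Retnlg correlated at 0.723 to 0.922. Lcn2 followed S100a8 (r = 0.825) and the receptors (0.75 to 0.814) more than S100a9 (0.663), Retnlg (0.579) or Ngp (0.48). With group means removed these became 0.775, 0.601 to 0.712, 0.469, 0.266 and 0.158 in the same order. These are descriptions of 11 tumors whose members share arrays and groups.

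**Figure D3:**
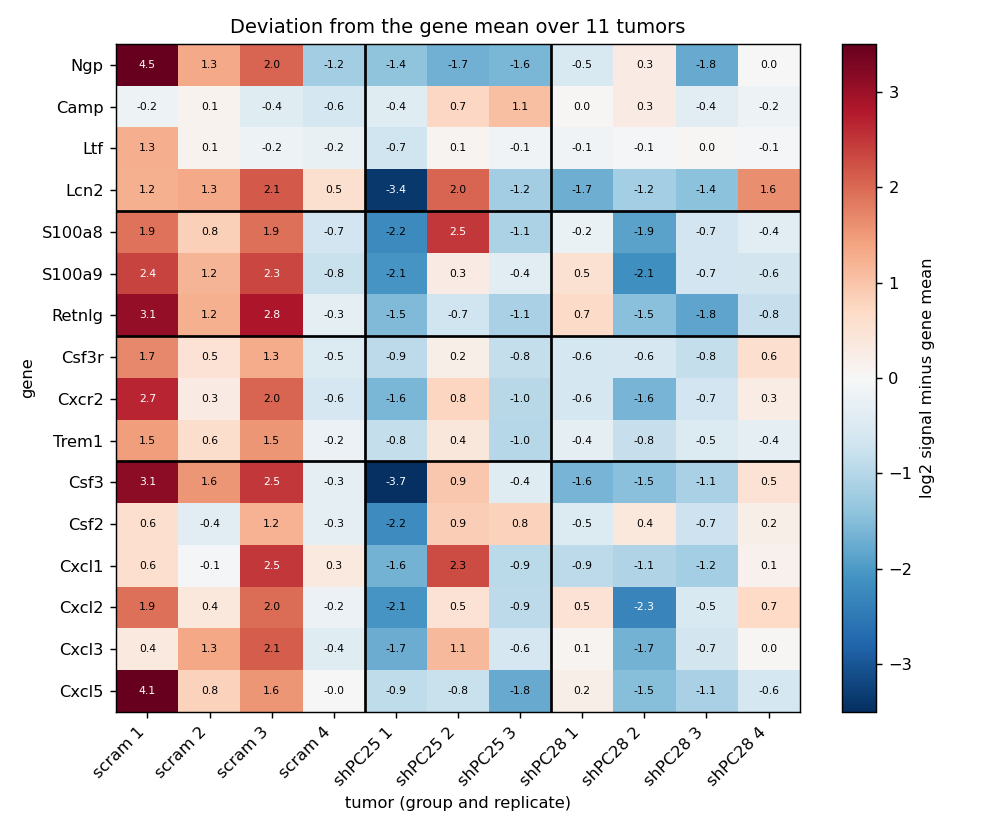
Deviation of each gene (rows) from its own mean over the 11 tumors (columns), in log2 units, for the 10 members and below them the growth factors Csf3 and Csf2 and the chemokines Cxcl1, Cxcl2, Cxcl3 and Cxcl5 (red above the mean, blue below, colour saturating at 3.5). Scram replicates 1 and 3 are red in most rows, and in shPC25 replicate 2 Lcn2, S100a8 and Cxcl1 are red while Ngp and Retnlg are blue.

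Csf3, the gene of G-CSF and thus of the ligand of Csf3r, was among the genes whose pattern over tumors was most like that of the members. It was 13.35, 11.79, 12.72 and 9.92 in scram, 6.55, 11.18 and 9.82 in shPC25 and 8.61, 8.77, 9.10 and 10.75 in shPC28 tumors. The lowest value was in shPC25 replicate 1, as for 4 of the members, and scram replicate 4 again lay among the shPC tumors. The difference was -2.70 (SE 0.86, adjusted p = 0.353). Csf3 correlated with the mean of the centred members at r = 0.948 over 11 tumors (0.90 with group means removed).

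Of the 10 ligand and growth factor genes listed, all measured, 9 were lower (median -1.29, against 0.02 for all probe sets). At an unadjusted p below 0.05, 4 were lower (4.76% of all probe sets), and 0 passed the adjusted threshold by limma. The CXCR2 ligands Cxcl1 and Cxcl2 had differences of -1.25 (SE 0.70) and -1.63 (SE 0.67), with adjusted p-values of 0.65 and 0.514. Cxcl1 in shPC25 replicate 2 was 12.13, against 8.20 and 8.91 in the other shPC25 tumors and 9.77 to 12.31 in scram. Csf2, the gene of GM-CSF, differed by -0.45 (SE 0.56, adjusted p = 0.865).

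The 10 genes outside the members with the highest correlation to the centred member mean over 11 tumors were Tnfrsf1b (0.968), Atp8b4 (0.96), Mrgpra2a (0.959), Ifitm1 (0.956), Hdc (0.953), Csf3 (0.948), Il13ra1 (0.947), Il4ra (0.946), Asprv1 (0.945) and Clec4e (0.943). With group means removed these correlations were 0.90 to 0.955. The 10 genes were picked by r over all other named genes, so high values follow in part from the choice. Hdc encodes histidine decarboxylase and Tnfrsf1b a TNF receptor. Their differences, all shPC minus scram, lay between -1.86 (Ifitm1) and -0.47 (Tnfrsf1b) apart from Csf3, with adjusted p-values of 0.24 to 0.562. Pcx correlated with the member mean at 0.547, and at 0.134 within groups. Fibroblast genes also followed the member mean, with r of 0.865 for Col3a1, 0.851 for Lum, 0.833 for Dcn, 0.793 for Col1a1 and 0.773 for Col1a2. Within groups these were 0.559 to 0.746.

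Other neutrophil genes, listed by role with earlier results of these data known, gave the same direction in several groups. Of 10 other granule genes, 9 were lower (median -0.62, against 0.02 for all probe sets). At an unadjusted p below 0.05, 5 were lower (4.76% of all probe sets). Mmp8, a neutrophil collagenase, differed by -0.85 (SE 0.36) and Mmp9, gelatinase B, by -2.79 (SE 0.63, adjusted p = 0.188). Mmp9 was 12.52, 11.90, 13.45 and 14.16 in scram and 8.07 to 12.02 in shPC tumors. Unlike the members, Mmp9 was highest in scram replicate 4. Of its fellow list members, Cd177 differed by -0.59 (SE 0.38) and Chil3 by -0.01 (SE 0.38).

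All 11 of the measured surface genes were lower (of 15 listed, median -0.70, against 0.02 for all probe sets). At an unadjusted p below 0.05, 4 were lower (4.76% of all probe sets). Among the 11 were the decoy receptor Il1r2 (-0.84, SE 0.62), Clec4d (-0.70, SE 0.56), Clec4e (-1.42, SE 0.49) and the cytokine receptor subunit Csf2rb (-0.56, SE 0.32). Genes of the mature cytosolic and secreted list were lower in 10 of 10 measured of 12 listed (median -1.01). At an unadjusted p below 0.05, 5 were lower, against the same 4.76% of all probe sets. Its stefins Stfa2l1, Stfa2 and Stfa3 differed by -1.74, -1.68 and -0.13, and Asprv1, a protease gene, by -1.45. None of these lists held a gene past the adjusted threshold by limma. The 5 primary granule genes (Mpo, Elane, Prtn3, Ctsg and Ms4a3) had a median difference of -0.05, and 1 of the 5 had a mean above background. Prtn3, the gene of proteinase 3, was the only one of them lower at an unadjusted p below 0.05 (-0.73, SE 0.25).

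**Figure D4:**
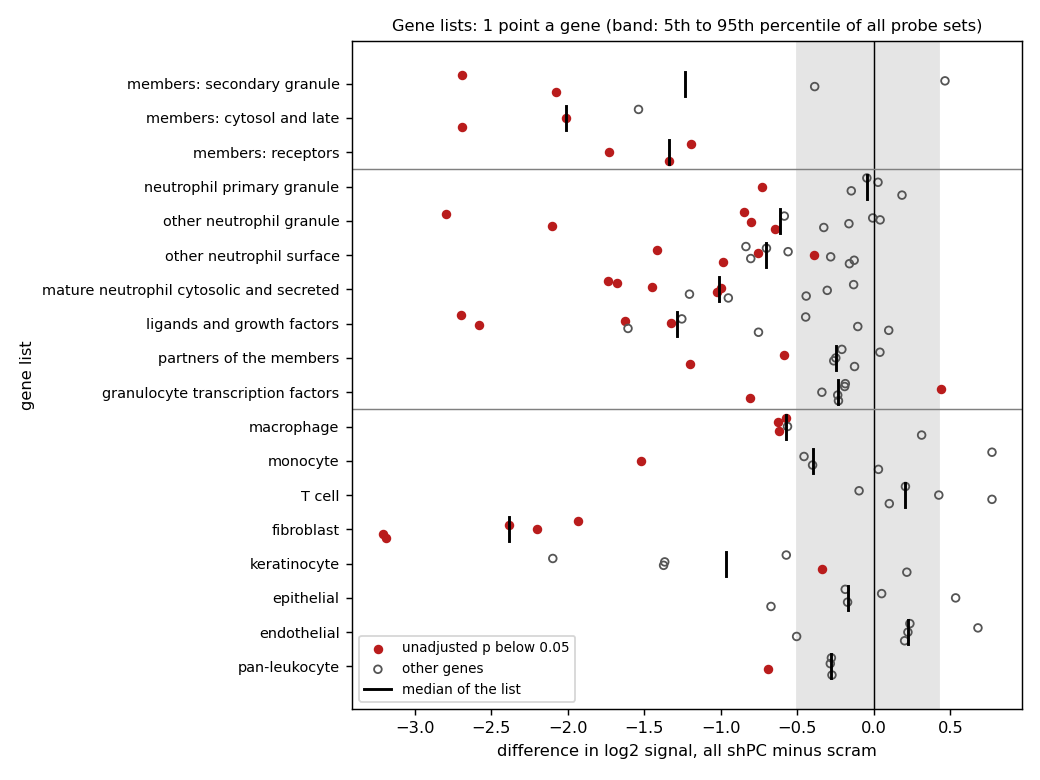
Difference in log2 signal, all shPC minus scram (horizontal axis), for each gene of the member groups and of 15 of the 18 further lists, with a filled point at an unadjusted p below 0.05, an open point otherwise, and a bar for the list's median. The member medians are -1.23 (secondary granule, with Camp and Ltf near background), -2.01 and -1.34. The ligand median is -1.29 and the fibroblast median is -2.38, whereas the T cell, epithelial and endothelial medians are within the grey band of -0.50 to 0.43.

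Partners and regulators of the members showed smaller differences. Of 7 measured partner genes (8 listed), 6 were lower, with a median of -0.25. At an unadjusted p below 0.05, 2 were lower (4.76% of all probe sets). Tyrobp, which encodes the DAP12 adaptor of TREM-1, differed by -0.21 (SE 0.22), Tlr4, a receptor for S100A8 and S100A9, by 0.04 (SE 0.29), Ager, another such receptor, by -0.58 (SE 0.25), and Jak2, the kinase of the G-CSF receptor, by -0.25 (SE 0.20). Socs3, an inhibitor of G-CSF receptor signaling, had the smallest p of the list, at -1.20 (SE 0.19, adjusted p = 0.0692). Means ± SD were 12.26 ± 0.30 in the 4 scram and 11.05 ± 0.28 in the 7 shPC tumors.

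Among 7 granulocyte transcription factor genes, 6 were lower and 1 of these was lower at an unadjusted p below 0.05 (4.76% of all probe sets). Cebpe, the factor of secondary granule genes, was 5.39 ± 0.46 in scram (SD, n = 4) and 5.24 ± 1.12 in shPC tumors (SD, n = 7), a difference of -0.19 (SE 0.52). Cebpa differed by -0.19 (SE 0.24), Gfi1 by 0.44 (SE 0.13, adjusted p = 0.316) and Spi1, the PU.1 gene, by -0.34 (SE 0.18). All 11 Gfi1 values, 3.54 to 4.33, were near background, so no direction is read from them.

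Markers of other cells moved with some of these values, and their part in them was not tested. The fibroblast list (Col1a1, Col1a2, Col3a1, Dcn and Lum, 5 of 6 measured) was lower in 5 of 5 genes at an unadjusted p below 0.05 (4.76% of all probe sets). Its list mean was 10.17 to 12.96 in scram and 7.76 to 10.8 in shPC tumors. The keratinocyte list (6 of 6 measured, 3 with a mean above background), of a cell that can make S100a8 and S100a9, averaged 6.32 in scram replicate 1 and 3.28 to 4.07 in all others. Krt1 and Krt10 were at 9.39 and 10.12 in scram replicate 1 and at most 4.42 and 4.84 elsewhere. The macrophage list had 3 of 5 measured genes lower at an unadjusted p below 0.05 (median -0.58), with list means of 11.53 to 11.97 in scram and 10.75 to 11.79 in shPC tumors. By hairpin the count was 4 of 5 for shPC25 (median -0.89, 4.16% of all probe sets) and 0 of 5 for shPC28 (median -0.25, 3.72%). The pan-leukocyte list, Ptprc, Cd52, Coro1a and Laptm5, had a median of -0.28 and Ptprc differed by -0.28 (SE 0.29). By hairpin the list median was -0.54 for shPC25 and -0.07 for shPC28, and Ptprc differed by -0.56 and 0.005. Median differences were -0.40 for the monocyte list, 0.21 for T cells, 0.41 for B cells, 0.22 for endothelial cells and 0.06 for eosinophil, basophil and mast cell genes (1 of 6 with a mean above background), and Alas2, the only measured red cell gene, differed by 0.38. The T cell median was -0.22 for shPC25 and 0.91 for shPC28, and the B cell median was -0.09 and 0.91. The B cell list was high in shPC28 replicate 4 (8.11, against 3.52 to 4.93 in all others), 1 of the tumors in which Lcn2 and Csf3r were close to scram. That tumor was also the highest of the 11 in the T cell list mean (8.95, next 7.83) and the pan-leukocyte list mean (12.80, next 12.52). With scram replicate 1 and shPC28 replicate 4 both left out, a choice made after the values were seen, 5 of 10 members were lower at an unadjusted p below 0.05 (4.14% of all probe sets) and the median difference was -1.34.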

How the data were processed

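RNA of 11 whole tumors was labelled with a whole transcript kit and hybridized to mouse Clariom S arrays, and the authors processed them in the Transcriptome Analysis Console software. The table they deposited holds normalized log2 signals of 22206 probe sets. How probes were summarized and normalized is not given in the sources used here. Values ran from 1.43 to 18.7. Symbols came from the platform annotation (19572 probe sets with 1 symbol, 2634 with none).

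Members and gene lists were chosen with earlier results of these data known. Of 124 listed genes, 110 were measured, in 18 lists. Genes named from a neutrophil list were the first 4 measured in written order (all of a list of up to 6), and the 10 genes most like the members were named. Lists of other cells were given mainly by counts and medians. Socs3, Cxcl3, Cxcl5, Krt1 and Krt10 were singled out after values were seen. All 11 tumors entered 1 linear model with a mean for each group in limma 3.58.1 (R 4.3.3, lmFit and eBayes), with 4 contrasts, two-sided tests and Benjamini-Hochberg adjustment over all probe sets (threshold 0.05). No filter was applied, and the fit was tested on simulated data. Alternatives were quantile normalization, median centring, 2 filters on dim probe sets, array weights and a robust prior with a trend. Others were a block for replicate number, a fit without the third group, an equal-variance t-test and leaving out each tumor. The paper names t-tests for 2 groups in general, but for genes on the arrays it names the Transcriptome Analysis Console. The number of arrays limits the precision.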

Additional observations from a re-analysis of the deposited data

Results flagged for a closer look

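Lcn2 in shPC28 replicate 4 was 16.17, far from the other 3 tumors of its group (12.84 to 13.35). The gap to the nearest, over the range of the group, was 0.847, above the limit of 0.829 for 4 samples. Of 20 groups of 4 tumors examined (10 genes in scram and in shPC28), this was the only 1, and chance gives about 1 in 20. In the same tumor Retnlg (7.96) and S100a9 (10.64) were -2.49 and -1.92 from their scram means, and Csf3r (11.00) was -0.18 from its own. The list means of B cells (8.11), T cells (8.95, next 7.83) and all leukocytes (12.80, next 12.52) were the highest of the 11 tumors here, and their part in the value was not tested.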

How the results depend on the processing

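No member passed the adjusted threshold in any fit, with the smallest adjusted p between 0.0673 and 0.471 for all shPC minus scram. Of single genes in single comparisons, 574 values kept their direction and side of the threshold and 1 did not. That was Ltf in shPC28 minus scram, at -0.46 to 0.046 with 1 tumor left out, the last without scram replicate 1. These counts do not measure stability. Many differences could not change, because filters, the prior and leaving out a tumor of an uncompared group do not alter them. S100a8 in shPC25 minus scram counted as kept, though it ran from -2.66 to -0.32 with 1 tumor left out. Counts at an unadjusted p below 0.05 with 1 tumor left out ran from 4 to 8 for all shPC, 3 to 8 for shPC25, 2 to 8 for shPC28 and 0 to 1 for shPC28 minus shPC25. Shares of all probe sets lower in those fits were 4.03% to 5.22% for all shPC, 3.45% to 4.62% for shPC25 and 3.19% to 4.22% for shPC28. The shPC25 median ran from -2.45 to -1.10. Array weights put the shPC25 count at 8 (4.34% of all probe sets). With only the compared groups fitted, shPC28 minus shPC25 had a count of 1. The equal-variance t-test gave counts of 1 for shPC25 (2.9% of all probe sets) and 3 for shPC28 (3.52%). Leaving out scram replicate 1 and shPC28 replicate 4 together gave 3 for shPC25 (3.7%). The granule minus receptor difference, 0.26, was -0.92 without Camp and Ltf. Causes were not tested, apart from fewer tumors or genes by construction. Median centring moved the median of all probe sets from 0.02 to 0.11 and gave 7 members lower at an unadjusted p below 0.05. Over all probe sets 3 passed after adjustment for all shPC. The number was 0 with quantile normalization or the equal-variance t-test, 8 with array weights and 22 with the trended and robust prior.

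Replicate numbers did not pair the tumors throughout (r of same-numbered tumors -0.18 to 0.14 in 10 pairs, group means removed). The limit set for pairing was an r of 0.1. Scram replicate 1 with shPC28 replicate 1 (0.143) and shPC25 replicate 3 with shPC28 replicate 3 (0.108) passed it, and the other pairs did not. With the number as a block, 6 members were lower at an unadjusted p below 0.05 for all shPC (4.57% of all probe sets), 4 for shPC25 (3.72%) and 4 for shPC28 (3.76%), and 0 probe sets passed in place of 3. Averaging of probe sets was not run because every member has 1. No scan date or batch was given, so none was examined. Dim probe sets limit Camp, Ltf, most Ngp values and Pcx.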
